A study of Mus musculus with 6 samples.

Results

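The comparison set RNA bound by the Piwi protein MILI in wild type cells against RNA of the same genotype that had resisted NaIO4, with 1 library each, 2 of the 6 libraries of the series. The libraries were chosen by their labels, Mili-ip and wild type treated by NaIO4, and no measured value entered that choice. The cells were cultured spermatogonial stem cells, from which sperm production is renewed. Per the labels they came from a 15-day-old male mouse, an F1 of C57BL/6 and DBA2 (strain given as C57BL/6) that carried an actin-EGFP transgene, and they grew on mouse embryonic fibroblast feeders. For Mili-ip, RNA was taken down with a commercial MILI antibody (MABE363, Millipore), and the labels name no spike-in for it. For the NaIO4 library, total RNA with added spike-ins was treated with NaIO4. Untreated wild type total RNA with spike-ins served as the common baseline. The untreated mili-/- library and the mhen1-/- libraries with and without NaIO4 gave values that neither of the 2 libraries enters. Both knockouts were made with Cas9 and were picked as single colonies, so each is 1 clone, and any feeder cells carried over belong to neither genotype.

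piRNAs are the small RNAs that Piwi proteins bind in the germ line, where they guide silencing of transposons and of some genes. MILI is the product of Piwil2. Hen1 (gene Henmt1) places a methyl group on the last ribose of a mature piRNA. NaIO4 oxidises RNAs whose last ribose has both hydroxyls free, and such RNAs then fail to enter a library, while methylated ones remain. Binding to MILI and resistance to NaIO4 are thus separate readouts, the first of RNA taken down with MILI and the second of total RNA. piRNAs of the primary pathway mostly begin with U (T in the reads), and those made by slicing of a complementary piRNA target often carry A at position 10.

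Reads of 18 to 35 nt numbered 25240941 in Mili-ip, 10282416 in the NaIO4 library and 7322408 in untreated wild type, and values are reads per 1000000 of these (rpm). The other libraries held 2604390 to 11702714 such reads. piRNA-like means a read of 25 to 31 nt with no exact sense match to an annotated small RNA. Source genes were named from piRNA-like reads that match the transcripts of 1 gene in the sense. Marker genes of the labelled cell type and of feeder fibroblasts were listed as sources of piRNA-like reads. Such reads do not measure expression of a gene, so they cannot check the cell type or the feeder content. Of the 10 markers of undifferentiated spermatogonia 8 passed a limit of 10 rpm, against 5552 of 24429 genes in all, and their summed level was 580 rpm in Mili-ip and 482 rpm in the NaIO4 library. The 13 feeder fibroblast markers summed to 32.6 and 36.8 rpm in the same order, 3 were at 0 in both libraries, and Fn1 alone passed the limit. With 1 library in a group no test was possible. Cells were pooled in each library, so fewer cells of a type and less RNA per cell cannot be told apart. Every difference below is between libraries, and every interval is a 95% interval that covers the counting error of reads only.

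Both libraries consisted mainly of piRNA-like reads. They made up 73.7% of Mili-ip and 64.9% of the NaIO4 library, against 41.9% of untreated wild type, a ratio of 1.14 for Mili-ip over NaIO4 (1.13 to 1.14). The ratio was 1.01 once the 10 sequences with the most reads in each library were left out, and it turned to 0.91 when each distinct sequence was counted once. Reads sense to protein-coding genes held 50.1% of Mili-ip and 41.3% of the NaIO4 library (ratio 1.21, and 0.89 with each distinct sequence counted once). Reads with no transcript match held 17.7% and 17.6% (ratio 1.00), and reads antisense to transcripts 1.33% and 1.26%. Long non-coding RNAs went the other way, with 2.25% in Mili-ip and 2.50% in the NaIO4 library (ratio 0.90). The mean length was 28.07 nt in Mili-ip and 28.06 nt in the NaIO4 library. T stood first in 85.5% of Mili-ip piRNA-like reads and in 81.8% of those in the NaIO4 library, against 73.3% in untreated wild type. The mili-/- library still held 12.4% piRNA-like reads, with T first in 30.1% of them. Its reads with no transcript match made up 8.78%, 0.62 of untreated wild type, against 0.030 for reads sense to protein-coding genes. The piRNA-like class thus also takes in reads that remain without Mili.

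**Figure D1:**
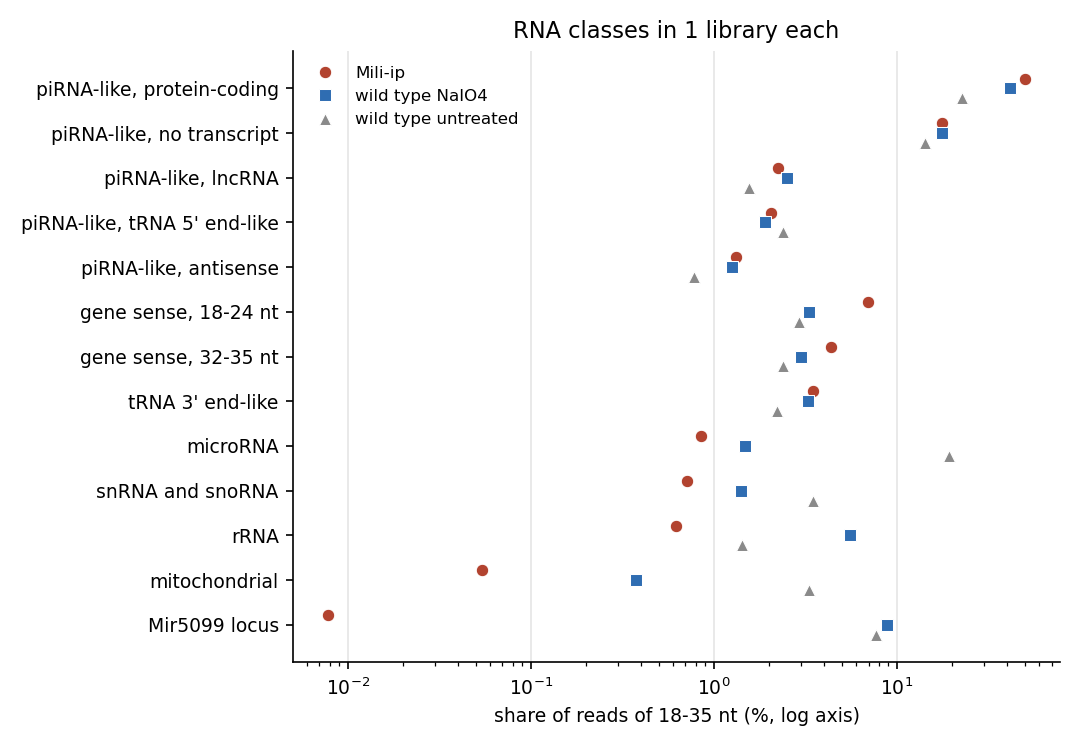
Share of reads of 18 to 35 nt (percent, log axis) held by each RNA class in Mili-ip (circles), wild type NaIO4 (squares) and untreated wild type (triangles), 1 library each. The piRNA-like classes lie close together in Mili-ip and NaIO4, while rRNA as a whole, mitochondrial RNA and the Mir5099 locus lie far apart.

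Among annotated RNAs, reads of the Mir5099 locus and 5S rRNA fragments with 1 shared 3′ end were abundant after NaIO4 and nearly absent from Mili-ip. Reads of the Mir5099 locus, annotated as a microRNA gene, made up 8.87% of the NaIO4 library and 7.71% of untreated wild type, and their share in Mili-ip was 0.00782% (0.00748 to 0.00817). The difference was 1134-fold (1085 to 1185). Fragments of 5S rRNA, a structural RNA of the large ribosomal subunit, that end with 1 shared stretch of bases had 57.1 rpm in Mili-ip and 48391 rpm in the NaIO4 library, 847-fold lower in Mili-ip (804 to 892). Both kinds were also present after NaIO4 without Hen1. In the mhen1-/- cells the share with NaIO4 over that without was 3.90 for the Mir5099 locus and 44.5 for the 5S fragments, while it was 0.37 for piRNA-like reads. Neither was lost in the mili-/- library, where the ratio to untreated wild type was 1.85 for the Mir5099 locus and 3.59 for the 5S fragments. The most abundant sequence of each is shown as the leading member of its kind. Capitals mark the 20 bases shared with the RefSeq Mir5099 hairpin and the stretch shared by the 5S fragments. The 5S sequence matched 51 annotated genes, among them a copy in the 3′ UTR of Tmem38b (chr4:53860722-53860746, GRCm38, plus strand).
Mir5099 locus: tCTTAGATCGATGTGGTGCTC
5S rRNA, inner fragment: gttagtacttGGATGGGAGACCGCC
The first had 44.9 rpm in Mili-ip and 59116 rpm in the NaIO4 library, and the second had 2.77 and 7967 rpm. Reads of rRNA that neither end with the marked 5S stretch nor begin at the 5′ end of 5S were closer. They had 4608 rpm in Mili-ip and 6800 rpm in the NaIO4 library (0.68).

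Mitochondrial reads had shares of 0.0543% in Mili-ip (0.0533 to 0.0552) and 0.375% in the NaIO4 library, against 3.32% in untreated wild type. Reads of snRNAs and snoRNAs, which guide splicing and the modification of rRNA, had 0.713% and 1.41%, against 3.49%. The leading snoRNA sequence after NaIO4, of Snord42a, had 0.555 rpm in Mili-ip and 501 rpm in the NaIO4 library, against 663 rpm in untreated wild type. The sequence that led this class in Mili-ip, of Gm22710 and 2900060B14Rik, went the other way. It had 160 rpm in Mili-ip and 22.5 rpm in the NaIO4 library (7.11), and no read in the mili-/- library. As a whole, both classes were lower in Mili-ip than with NaIO4 and lower with NaIO4 than without.

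By source gene the bound and the resistant pool were close. Of 24429 genes with such reads in any of the 6 libraries, 5552 had a mean of the 2 libraries of at least 10 rpm, and 94.1% of these lay within 2-fold. Mili-ip was at least 2-fold higher for 264 genes (4.76%) and at least 2-fold lower for 65 (1.17%). At 4-fold the counts were 8 (0.144%) and 14 (0.252%). The median ratio was 1.22, and the 5th and the 95th percentiles were 0.711 and 1.99. Scaled to piRNA-like reads in place of all reads, the median on the log2 scale moved to 0.11, against 0.29, and the counts became 119 higher and 111 lower, so the excess of higher over lower genes depends on the scaling. Across genes, log2 levels gave Pearson's r = 0.943 and Spearman's rho = 0.900 over the 5552 genes, which share the libraries' depth and are not independent replicates.

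**Figure D2:**
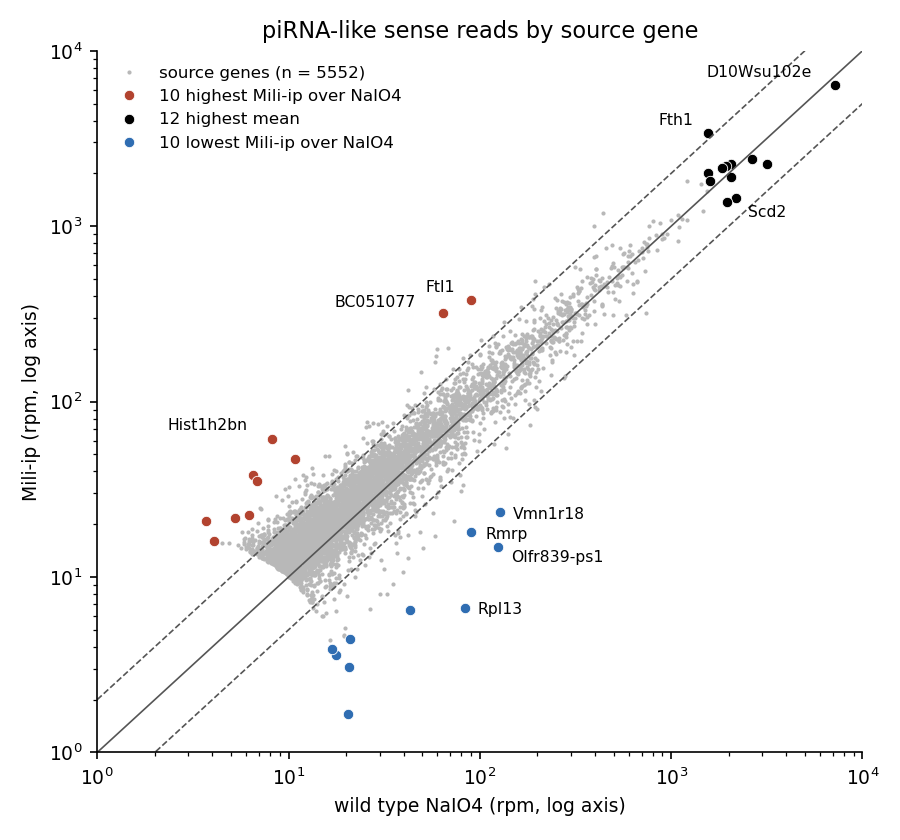
Level of piRNA-like sense reads in Mili-ip (vertical, rpm, log axis) against wild type NaIO4 (horizontal, rpm, log axis) for the 5552 source genes with a mean of at least 10 rpm. The solid line marks equal levels and the dashed lines 2-fold, black points are the 12 genes with the highest mean, red points the 10 with the highest ratio and blue points the 10 with the lowest.

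Of the 12 genes with the highest mean of the 2 libraries, 11 lay within 2-fold. D10Wsu102e, the largest source in both, had 6358 rpm in Mili-ip and 7214 rpm in the NaIO4 library (ratio 0.88, 0.87 to 0.89). Abl2, which encodes a tyrosine kinase, had 2417 and 2631 rpm (0.92). Trim71, an RNA-binding repressor of stem cells, had 2017 and 1549 rpm (1.30). Cbx5, which encodes heterochromatin protein HP1 alpha, had 1810 and 1601 rpm (1.13). In these 4 genes the 3′ UTR held at least 96.0% of the reads of Mili-ip and NaIO4 with a place in the transcript. Tmem245, Rab11fip4 and Gabpb2 had ratios of 1.11, 1.13 and 1.16. The 3 lowest ratios among the 12 largest sources were those of Scd2, a fatty acid desaturase (1448 and 2180 rpm, 0.66), and of the long non-coding RNAs Gm30948 (1376 and 1967 rpm, 0.70) and Gm38246 (2259 and 3170 rpm, 0.71). In the mili-/- library all 12 were at or below 7.90 rpm.

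Fth1 was the one among the 12 that passed 2-fold. This gene encodes the heavy chain of ferritin, the iron store of the cell, and had 3392 rpm in Mili-ip and 1563 rpm in the NaIO4 library (2.17, 2.13 to 2.21). Ftl1, which encodes the light chain of the same complex, was among the 10 genes with the highest ratios. It had 380 and 90.3 rpm (4.21, 3.93 to 4.50). In Ftl1 93.5% of the reads with a place fell in the 5′ UTR, and in Fth1 36.4% did and 55.9% fell in the coding sequence. Both were nearly absent from the mili-/- library, with 6.24 rpm for Fth1 and 1.04 rpm for Ftl1.

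Among genes of known function the piRNA pathway and the stem cell list moved with the bulk. Of 24 genes of the piRNA pathway 13 passed the limit. None was at least 2-fold higher or lower, against 4.76% higher and 1.17% lower over all genes. At these shares lists this short hold few calls or none. The median ratio was 1.26, against 1.22 over all genes. Piwil2, the source of MILI itself, had 83.5 rpm in Mili-ip and 74.9 rpm in the NaIO4 library (1.11), Mov10l1, a helicase of piRNA precursors, had 88.4 and 70.2 rpm (1.26), and Mael had 41.0 and 30.1 rpm (1.36). Of 20 spermatogonial stem cell genes 14 passed, none was called, and the median was 1.27. Gfra1, the co-receptor for GDNF, had 37.0 and 40.9 rpm (0.90), and Lin28b, which blocks maturation of let-7, had 179 and 146 rpm (1.23).

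Histone and ribosomal protein genes were shifted toward Mili-ip. Of 37 histone genes tested, 11 were at least 2-fold higher and 1 was lower, with a median of 1.60. Over all source genes 4.76% were higher and 1.17% lower, and the median was 1.22. Scaled to piRNA-like reads 8 histone genes were higher and 2 lower (median 1.41). Over all genes 2.14% were higher and 2.00% lower with that scaling (median 1.08). H3f3a had 201 rpm in Mili-ip and 59.5 rpm in the NaIO4 library (3.37), Hist1h3c had 76.3 and 25.6 rpm (2.98), and Hist1h2bn had 61.5 and 8.17 rpm, the highest ratio of any gene tested (7.53, 6.05 to 9.38). Hist1h2br, with 6.66 and 13.4 rpm, was the 1 lower (0.50). Of 54 genes whose symbol begins with Rpl or Rps, which takes in S6 kinase genes, 8 were at least 2-fold higher and 1 was lower, with a median of 1.42, and scaled to piRNA-like reads 6 were higher. Rpl4 had 1190 and 443 rpm (2.69), Rps15 had 1003 and 395 rpm (2.54) and Rps16 had 28.9 and 8.56 rpm (3.38). Both families have near-identical copies and pseudogenes, so the split between single members is uncertain. When each distinct sequence was counted once, no gene of either list was 2-fold higher (medians 0.76 and 0.77), and 1 and 5 were lower. Over all genes in that setting 2.32% were higher and 0.945% lower, with a median of 1.07. Counts of distinct sequences also move with depth, which differs between the 2 libraries, so where the shift lay was not tested. Other genes with high ratios were the long non-coding BC051077 (320 and 64.0 rpm, 4.62 to 5.42), the antisense transcript A230083N12Rik (38.1 and 6.52 rpm, 5.85), Ankrd63 (5.67), Gramd1a (4.14), Gps2 (3.93) and Psmc3ip (3.62), and the histone genes Hist1h2bl (5.21) and Hist4h4 (4.38).

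Where in the transcript the reads lay moved with the ratio. The median coding sequence share was 67.4% in the 264 higher genes and 9.53% in the 65 lower genes, against 36.5% over all genes. Over the reads as a whole, 30.1% of those placed in a transcript region lay in coding sequence in Mili-ip and 25.9% in the NaIO4 library, and 66.4% and 71.5% lay in 3′ UTRs. Across 5349 genes the ratio and the coding share gave rho = 0.308, and the ratio and the GC content of the transcript gave rho = 0.088, both as descriptions.

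The genes with the lowest ratios were of 2 kinds. The first had few or no reads in the mili-/- library. It held chemoreceptor genes, which are not known to act in these cells and were taken as a list after their values were seen: 14 of the 1970 annotated Olfr, Vmn1r and Vmn2r genes passed the limit, 10 of them were at least 2-fold lower and 1 was higher, against 1.17% lower and 4.76% higher over all genes. Vmn1r18 had 23.3 rpm in Mili-ip and 128 rpm in the NaIO4 library (0.18), Olfr839-ps1 had 14.7 and 125 rpm (0.12), and Vmn1r-ps14 had 1.66 and 20.4 rpm (0.081). Olfr889 went the other way with 148 and 49.2 rpm (3.01). None of these 4 passed 0.832 rpm in the mili-/- library. In those of the 14 annotated as protein-coding all placed reads fell in the 3′ UTR. Upb1 (3.05 and 20.6 rpm), Gm42445 (6.50 and 43.0 rpm), Gm21926, Gm45105 and Sdc3 completed this kind, with ratios of 0.15 to 0.23, and Sdc3 kept 1.46 rpm in the mili-/- library, against 9.97 rpm in untreated wild type.

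The second kind stayed in the mili-/- library. Rpl13 had 6.66 rpm in Mili-ip, 83.6 rpm in the NaIO4 library and 117 rpm in untreated wild type, the lowest ratio of all genes tested (0.080, 0.067 to 0.094), and 213 rpm in the mili-/- library. Rmrp, the RNA of RNase MRP, had 17.9, 90.3 and 887 rpm in the same 3 libraries and 1881 rpm in the mili-/- library. Genes that kept at least 50% of their untreated level without Mili numbered 4 of the 65 lower, 2 of the 264 higher and 49 of all 5552. Over sequences with no read in the mili-/- library, the gene counts were 266 higher and 59 lower of 5542.

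Agreement fell off from the gene to the sequence. Reads in common, the sum over units of the smaller of the 2 shares, reached 88.1% by gene, 45.9% by 5′ end (the first 20 nt) and 35.1% by whole sequence, taken over piRNA-like reads that match 1 gene. Thinned to 1401098 reads in each library they were 87.4%, 40.9% and 30.4%. The fall was not particular to this pair: the NaIO4 library and untreated wild type had 92.5%, 43.7% and 33.1% in common by gene, 5′ end and sequence. Of 25573 piRNA-like sequences with a mean of at least 2 rpm, Mili-ip was at least 2-fold higher for 6981 (27.3%) and at least 2-fold lower for 5488 (21.5%), and 51.2% lay within 2-fold. Scaled to piRNA-like reads the balance turned, with 5961 higher and 6452 lower. The interval of the ratio lay wholly past 2-fold for 3630 and 3191 of them. Grouped by first 20 nt, 57.7% lay within 2-fold. Log2 levels of the sequences gave r = 0.324 and rho = 0.174. Of the sequences with at least 2 rpm in a library, 54.1% of the 27678 in Mili-ip were on the list of the NaIO4 library, and 56.5% of the 26525 in the NaIO4 library were on that of Mili-ip. Thinning Mili-ip to the reads of the NaIO4 library left these shares at 52.8% and 56.5%. A sequence far from equal passed the limit through the library in which it is high, so these counts describe the tails and do not measure how often they arise.

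**Figure D3:**
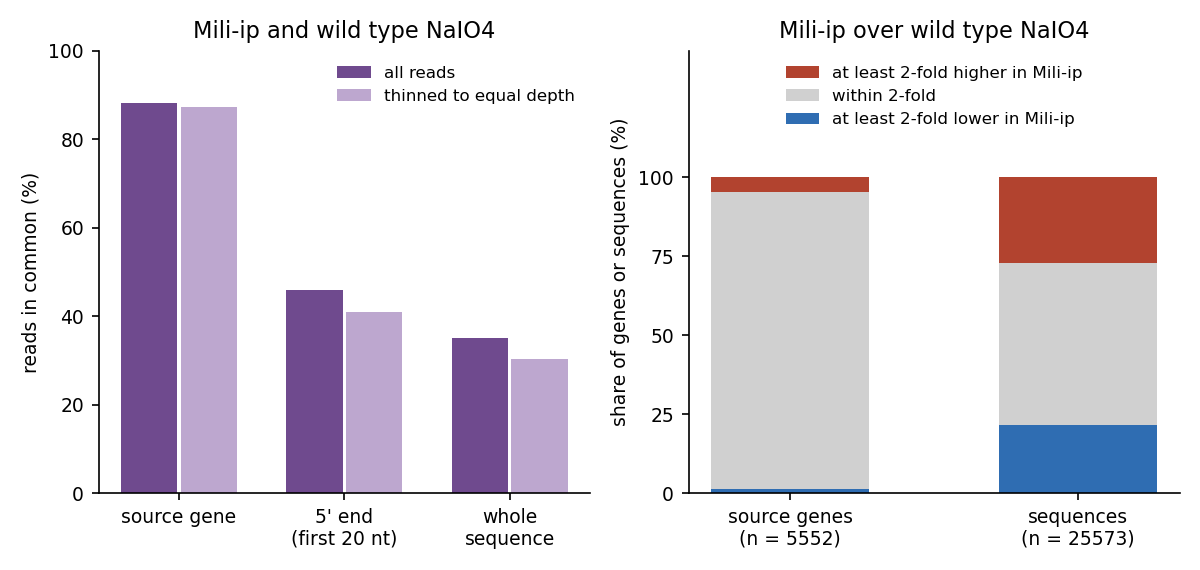
Left, reads in common between Mili-ip and wild type NaIO4 (percent of piRNA-like reads that match 1 gene) by source gene, 5′ end and whole sequence, for all reads (dark) and thinned to equal depth (light). Right, the share of source genes and of piRNA-like sequences at least 2-fold higher in Mili-ip (top), within 2-fold (middle) and at least 2-fold lower (bottom): 94.1% of genes and 51.2% of sequences lie within 2-fold.

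Within the 12 largest sources the leading 5′ end was the same in 6. Its shares were close in some, such as Rab11fip4 (8.43% in Mili-ip and 8.21% in the NaIO4 library) and Gm38246 (27.5% and 23.2%), and apart in others. In Scd2 the leading 5′ end was the same in both libraries and held 11.3% of the reads of the gene in Mili-ip and 24.9% in the NaIO4 library. In Tmem245 the shared leading end held 20.1% and 10.3%. In Abl2 the leading end of Mili-ip held 3.83% there and 1.62% in the NaIO4 library, whose own leading end held 4.66% and was at 1.04% in Mili-ip. Reads in common by 5′ end were lowest in D10Wsu102e (54.99%) and highest in Gm38246 (72.7%) over the 12 largest sources.

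Single sequences show the size of these shifts, and those printed are among the most abundant on each side. Sequences that match many unrelated genes are left out. Capitals mark the first base and, where it is A, base 10. The first 3 were at least 4-fold higher in Mili-ip, a class of 2605 sequences (10.2%). The histone H3 sequence matched 9 Hist1h3 genes and 1 pseudogene, among them the coding sequence of Hist1h3h (chr13:21717893-21717919, plus strand). The Rps15 sequence lies in its coding sequence (chr10:80294009-80294035, plus strand) and is shared with 1 pseudogene, and the Rpl4 sequence lies in its coding sequence (chr9:64176981-64177006, plus strand).
Histone H3: Ttcaagaccgacctgcgcttccagagc
Rps15: Tacaaacccgtgaagcacggccggccc
Rpl4: Tgagaaaccgacggcggatccagcgc
The histone H3 sequence had 2744 rpm in Mili-ip, 343 rpm in the NaIO4 library and 218 rpm in untreated wild type (8.01, 7.74 to 8.28). The Rps15 sequence had 510, 37.9 and 33.9 rpm (13.4), and the Rpl4 sequence had 301, 32.6 and 21.3 rpm (9.23). None of the 3 had a read in the mili-/- library.

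The next 3 set both directions side by side in sequences that match 1 gene in the sense. Both Gm38246 sequences come from this long non-coding RNA (chr3:51104459-51104485 and chr3:51104182-51104210, plus strand), and the Wasf2 sequence lies in the 3′ UTR of this actin regulator (chr4:133199659-133199687, plus strand). The last 2 were at least 4-fold lower in Mili-ip, a class of 2074 sequences (8.11%).
Gm38246, equal: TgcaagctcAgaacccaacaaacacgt
Gm38246, lower: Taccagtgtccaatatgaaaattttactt
Wasf2, lower: Taacctgaagattccatgtaactcttatg
The first had 495 rpm in Mili-ip and 484 rpm in the NaIO4 library (1.02, 0.99 to 1.06). The second had 42.7 and 250 rpm (0.17), and the Wasf2 sequence had 43.5 and 204 rpm (0.21). Among these 3 only the Wasf2 sequence had reads in the mili-/- library, at 0.208 rpm.

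The 2 tails differed in base composition. To leave aside RNAs seen without Mili, sequences sense to a protein-coding gene and with no read in the mili-/- library were taken. Of those at least 4-fold higher in Mili-ip (1951), 94.5% began with T, 27.7% had A at position 10 and the mean GC content was 50.4%. Of those at least 4-fold lower (1107), 87.2% began with T, 44.7% had A at position 10 and the mean GC content was 43.9%. Sequences within 2-fold (9675) had 95.8%, 31.02% and 45.9%. A at position 10 without T at position 1 was found in 1.54% of the higher and 8.67% of the lower sequences, against 1.72% within 2-fold. The mean lengths were 28.05 and 28.31 nt.

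**Figure D4:**
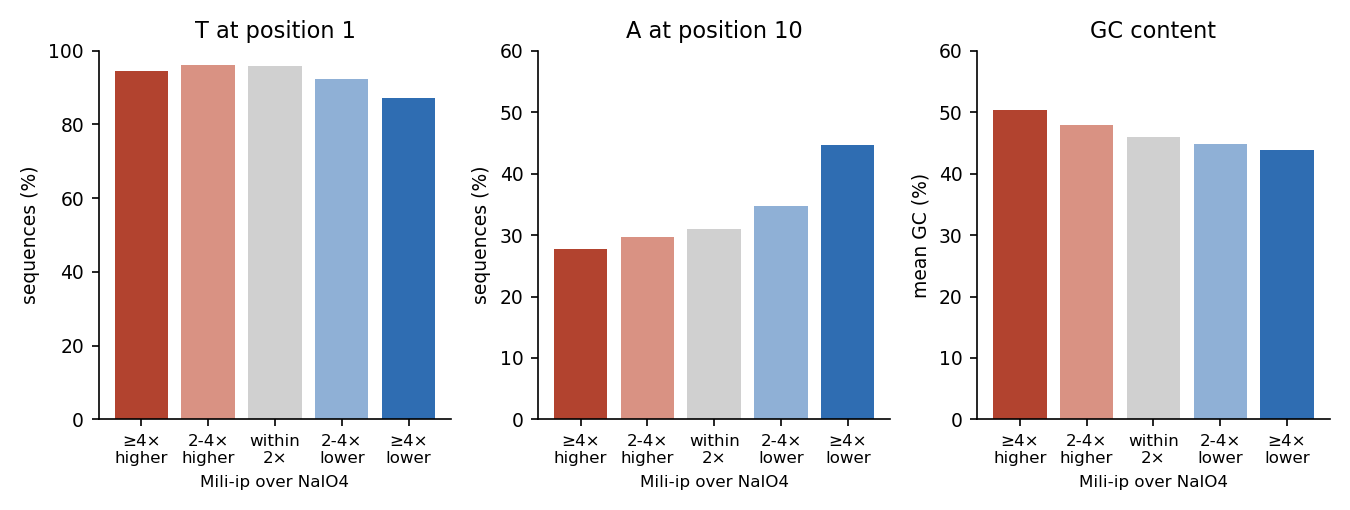
Share of sequences with T at position 1 (left) and A at position 10 (middle), and mean GC content (right), for piRNA-like sequences sense to a protein-coding gene with no read in the mili-/- library, in 5 bands of Mili-ip over wild type NaIO4. A at position 10 ranges over 27.7%, 29.7%, 31.02%, 34.7% and 44.7%, and GC content over 50.4%, 47.9%, 45.9%, 44.8% and 43.9%, across the bands from left to right.

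These bands also differed in libraries that do not enter the ratio. In the untreated mhen1-/- library the summed level over untreated wild type was 1.44 for the sequences at least 4-fold higher in Mili-ip, 0.84 within 2-fold and 0.50 for those at least 4-fold lower. With NaIO4 over without in mhen1-/- cells the values were 0.22, 0.29 and 0.34. The untreated wild type library enters both Mili-ip over untreated (7.06, 1.962 and 0.35) and NaIO4 over untreated (1.09, 1.87 and 2.21), and these values stand side by side as levels only. GC content moves with the bands, and its part in the differences was not tested.

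Sequences kept without Mili made up a larger share of those far lower in Mili-ip than of those far higher. At least 50% of the untreated level was kept in the mili-/- library by 368 of the 2074 sequences at least 4-fold lower in Mili-ip (17.7%), by 44 of the 2605 at least 4-fold higher (1.69%) and by 3.61% of all. The 368 summed to 768 rpm in Mili-ip, 11168 rpm in the NaIO4 library and 19923 rpm in untreated wild type, so they were lower with NaIO4 than without (0.56). T stood first in 30.4% of them, and 92.9% matched no transcript. In mhen1-/- cells their summed level with NaIO4 over that without was 1.69, against 0.35 for the 1663 sequences of the same band with no read in the mili-/- library. Whether they come from rRNA or tRNA genes outside the transcripts used was not tested. Without sequences seen in the mili-/- library, 28.0% of 24149 were at least 2-fold higher and 20.0% lower.

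Within the lengths of piRNA-like reads the 3′ ends were alike. Shorter and longer reads did not enter this comparison, so 3′ ends that fall outside these lengths were not tested. At 4416 5′ ends with a mean of at least 10 rpm and 10 reads in each library, the mean length was 28.12 nt in Mili-ip and 28.13 nt in the NaIO4 library, a difference of -0.0074 nt (SD 0.370 over 5′ ends). The most common length was the same at 80.1% of them. Mili-ip reads were longer by at least 1 nt at 40 ends and shorter at 53. Bases at the 3′ end that the transcript does not hold, up to 3, were found on 4.06% of reads in Mili-ip and 4.35% in the NaIO4 library, and on 5.28% in untreated wild type, while the mhen1-/- library without NaIO4 had 15.8%.

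Short reads of genes were higher in Mili-ip than with NaIO4. Reads of 18 to 24 nt sense to a gene made up 6.99% of Mili-ip and 3.31% of the NaIO4 library, against 2.91% of untreated wild type (ratio 2.11 for Mili-ip over NaIO4, 2.10 to 2.12). Their share in the NaIO4 library was 1.14 of that in untreated wild type, against 1.55 for all piRNA-like reads. Shares were not scaled to spike-ins, so loss of these reads with NaIO4 was not tested. Mili-ip over NaIO4 was 3.39 at 18 nt (11066 and 3266 rpm), 2.18 at 21 nt and 1.31 at 24 nt. From 25 to 31 nt it lay between 1.15 and 1.24. It was higher again above that range and reached 1.83 at 35 nt. T stood first in 83.4% of the short reads of Mili-ip and in 80.1% of those of the NaIO4 library. Their first 18 nt were also those of a piRNA-like sequence with at least 10 reads in the 2 libraries together for 43.8% and 41.3% of them, and the ratio was 2.24 for these and 2.02 for the rest. In the mili-/- library the short reads were at 1.08% of reads, 0.37 of untreated wild type.

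**Figure D5:**
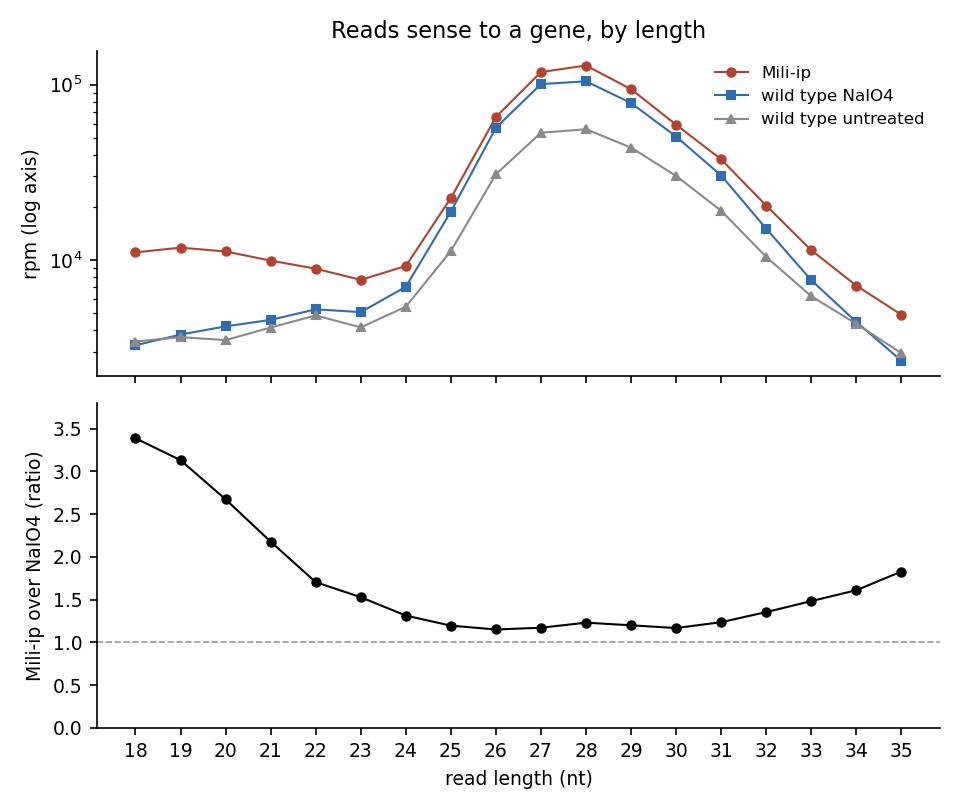
Top, level of reads sense to a gene (rpm, log axis) by read length in nt for Mili-ip (circles), wild type NaIO4 (squares) and untreated wild type (triangles). Bottom, the ratio of Mili-ip over wild type NaIO4, which is 3.39 at 18 nt, 1.15 at 26 nt and 1.83 at 35 nt.

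Fragments like the 3′ end of tRNAs were found in both libraries, mostly with CCA at the end, but the share without the last A differed. Reads of 18 to 24 nt that end with CCA, the bases added to every tRNA, and that match no transcript had 3.48% of Mili-ip and 3.25% of the NaIO4 library, against 2.23% of untreated wild type. Neither knockout lowered them in these readouts. In mhen1-/- cells their share with NaIO4 over that without was 6.66, and the mili-/- library had 1.05 of the untreated wild type share. Over the 126 such sequences with a mean of at least 10 rpm the CCA form had 33061 rpm in Mili-ip and 29938 rpm in the NaIO4 library (1.10), whereas the form without the last A had 11537 and 981 rpm (11.8-fold higher). The form without A was 25.9% of both forms in Mili-ip, 3.17% in the NaIO4 library and 4.66% in untreated wild type, and its share was higher in Mili-ip for 105 of the 126. For sequences of 18 nt the shorter form falls outside the lengths kept. In mhen1-/- cells it was 2.03% with NaIO4 and 21.4% without, and in the mili-/- library 3.16%. The 2 most abundant are printed with CCA in capitals, because they differ at 1 inner base and had opposite ratios.
tRNA 3′ end-like, first: tcgtttcccggccaatgcaCCA
tRNA 3′ end-like, second: tcgtttcccggcccatgcaCCA
The first had 7789 rpm in Mili-ip and 11846 rpm in the NaIO4 library (0.66), and the second had 10573 and 6619 rpm (1.60).

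Some fragments like the 5′ end of tRNAs were far apart by sequence. In sum such fragments were close, with 2.06% of Mili-ip and 1.91% of the NaIO4 library at 25 to 31 nt. They were recognised by a motif of the tRNA A box, TNGNNNANNGG or TNGNNNANNNGG, that begins at position 8 of a read with no transcript match. It was searched on the strand of the read and marked 1.38% of the 25573 sequences. The 2 printed are the most abundant on each side.
tRNA 5′ end-like, higher: tcctcgttagtatagtggtgagtatcccc
tRNA 5′ end-like, lower: tcccacatggtctagcggttaggattcc
The first had 5922 rpm in Mili-ip and 920 rpm in the NaIO4 library (6.44, 6.31 to 6.57), against 517 rpm in untreated wild type and 23.7 rpm in the mili-/- library. The second had 127 and 1278 rpm (0.099), against 3147 rpm in untreated wild type, and was kept in the mili-/- library at 2818 rpm. Length mattered within the first: over reads with its first 20 nt the ratio was 0.88 at 28 nt, 6.43 at 29 nt, 1.17 at 30 nt, 0.95 at 31 nt and 2.87 at 32 nt.

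microRNAs, which lack the methyl group in mammals, were low in both. They had 0.847% of Mili-ip and 1.47% of the NaIO4 library, against 19.2% of untreated wild type (0.58 for Mili-ip over NaIO4). Of 77 arms with a mean of at least 10 rpm, 43 were at least 2-fold lower in Mili-ip (55.8%) and 11 at least 2-fold higher (14.3%), with a median of 0.44. The 6 arms that lead either library carry 6 different seeds, and their RefSeq sequences (GRCm38.p6) are printed with bases 2 to 8, the seed, in capitals.
miR-871-3p: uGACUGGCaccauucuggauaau
miR-741-3p: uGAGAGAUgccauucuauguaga
miR-26a-5p: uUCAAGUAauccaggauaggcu
miR-99a-5p: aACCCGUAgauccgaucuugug
miR-470-5p: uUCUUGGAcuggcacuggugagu
miR-183-5p: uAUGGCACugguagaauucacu
miR-871-3p had 820 rpm in Mili-ip, 1461 rpm in the NaIO4 library and 29138 rpm in untreated wild type, and miR-741-3p, from the same X-linked region, had 570, 1518 and 31872 rpm. miR-26a-5p had 278 and 371 rpm, miR-470-5p 201 and 576 rpm, and miR-183-5p 128 and 386 rpm in Mili-ip and NaIO4. miR-99a-5p stood apart with 217 and 18.9 rpm (11.5, 9.96 to 13.3), against 220 rpm in untreated wild type. Mili-ip over untreated wild type was 0.98 for this arm and 0.044 for all microRNA reads. miR-125b-5p (113 and 32.7 rpm, 3.46) and miR-10b-5p (119 and 44.9 rpm, 2.66) also were higher in Mili-ip. Of 5 listed microRNAs that mark fibroblasts, only miR-199 and miR-214 had arms that reached a mean of 1 rpm. These 3 arms summed to 93.7 rpm in Mili-ip and 65.9 rpm in the NaIO4 library (1.42), and each had a ratio above 1. The 16 arms of undifferentiated germ cells summed to 1692 and 3842 rpm (0.44), and 3 of them had a ratio above 1. The part of feeder RNA in the higher microRNAs was not tested.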

How the data were processed

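Each library was deposited as counts of reads per distinct sequence, collapsed by the authors before deposit, without scaling. The aligner Bowtie and the build mm10 were used by the authors, per the submitters' processing notes. Trimming is not given in the sources used here. Reads of 18 to 35 nt were scaled to rpm and matched without mismatch to GENCODE M21 transcripts and to RefSeq hairpins, so introns were not read. Of 430 RefSeq nuclear tRNA genes 13 had a sequence, hence the motif-based tRNA-like classes, added after the data were seen. Shares have exact Clopper-Pearson intervals and ratios have intervals from read counts on the log scale. Reads are not counted by molecule. Calls are a fold of 2 or 4, without a test, since each group has 1 library. The ratio step was tested on simulated data. Genes named are the 12 with the highest mean, the 10 with the highest and the 10 with the lowest ratio, and members of lists (piRNA pathway, stem cell, histone, ribosomal protein, markers). Sequences named are the most abundant per class and direction among those not on chromosome 18. One gene and one sequence that these rules name are not reported here. Members and lists were chosen with earlier results of these data known. Tools were numba 0.67.0, matplotlib 3.10.9, scipy 1.17.1, pandas 2.3.3 and numpy 2.4.6 under Python 3.11.15.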

Additional observations from a re-analysis of the deposited data

How the results depend on the processing

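No paired analysis was possible because each group has 1 library, and for the same reason no library could be left out. The piRNA-like ratio of Mili-ip over NaIO4 (1.14) was 1.01 without the 10 leading sequences of both libraries, 1.14 at 24 to 32 nt and 1.14 without tRNA 5′ end-like sequences (chosen after seeing the data), and it turned to 0.91 when each distinct sequence counted once. That setting also turned protein-coding piRNA-like reads to 0.89. The ratio of tRNA 3′ end-like reads (1.07) turned to 0.94 scaled to piRNA-like reads, 0.82 without the 10 sequences and 0.55 counted once. Genes higher and lower numbered 264 and 65, but 119 and 111 scaled to piRNA-like reads, 8 and 14 at 4-fold, 1313 and 205 at 1.5-fold, 1047 and 255 at 2 rpm, 39 and 15 at 50 rpm, and 545 and 185 with all matched reads divided over their genes. Sequences numbered 6981 and 5488, but 2605 and 2074 at 4-fold, 16235 and 15203 at 1 rpm, and 909 and 642 at 10 rpm. Scaled to piRNA-like reads they were 5961 and 6452. Shared sequences were 52.8% of the Mili-ip list when it was thinned and 50.1% at 10 rpm, and 50.7% of the NaIO4 list at 1 rpm. The causes were not tested, except that folds, limits and scaling act by construction. Sequences near 2 rpm rest on few reads, which limits single ratios there.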
